A study of Mus musculus with 4 samples.

Results

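The prostaglandin synthesis and receptor genes are 10 genes chosen by symbol. They are Ptgs1 and Ptgs2, the cyclooxygenases, Ptges, Ptges2, Ptges3 and Ptgis, the terminal synthases, Ptger1, Ptger2 and Ptger4, receptors for prostaglandin E2, and Hpgd, the enzyme that inactivates prostaglandins. The array's annotation gave 14 probe sets to 8 of them, out of 18193 genes with a probe set of their own. Both probe sets of Ptges3 were annotated to its pseudogene Ptges3-ps as well, so their signal cannot be assigned to either gene, and Ptgs1 is not analysed here because no probe set was named for it.

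Total RNA came from MC3T3-E1, a line of preosteoblasts from the calvaria of newborn C57BL/6 mice, and was measured on 4 Affymetrix Mouse Genome 430 2.0 arrays. Cells were kept for 6 or 3 days in osteogenic medium, which was MEM α with 10% fetal bovine serum plus ascorbic acid 2-phosphate at 150 µM and beta-glycerophosphate at 10 mM, or for 6 or 3 days in normal medium, the same without both additions. Each of the 4 groups was 1 array of 1 immortal line, so no difference between single arrays has an error from separate cultures. The series set out to find genes associated with differentiation into osteoblasts, which the arrays address by medium within a day and by day within a medium.

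Prostaglandins are made in steps. A phospholipase frees arachidonic acid from membranes, a cyclooxygenase turns it into prostaglandin H2, and a terminal synthase turns that into prostaglandin E2, prostacyclin or another prostanoid. Osteoblasts are a main source of prostaglandin E2 in bone, where it acts on bone formation and, through osteoblasts, on the formation of osteoclasts. Its receptors differ in the G protein they use. EP2 and EP4 raise cAMP, EP3 mostly lowers it, and EP1 raises calcium.

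The prostaglandin E2 receptor gene Ptger4 and the prostacyclin synthase gene Ptgis were past 2-fold higher in osteogenic medium at both days, and the inducible cyclooxygenase gene Ptgs2 at day 6 only. At day 6 Ptgs2 was 6.28-fold, Ptger4 3.57-fold and Ptgis 2.07-fold higher in osteogenic medium. At day 3 Ptgis was 2.71-fold and Ptger4 2.47-fold higher, while the Ptgs2 ratio was 1.74. The prostaglandin E synthase genes Ptges and Ptges2 did not reach 2-fold at either day. The receptor genes Ptger1 and Ptger2 and the inactivating enzyme gene Hpgd were not above the floor, the limit below which signals were given no order, on any array. In RNA from a whole culture, fewer cells with a transcript and less of it per cell cannot be told apart.

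Signals here are the authors' deposited intensities after a small further scaling between arrays. The floor is the median signal of all probe sets, 57.8, and stands in for detection calls. A difference is the log2 signal of 1 array minus that of another, a gene is taken at its brightest probe set, and a gene is counted as higher or lower only past 2-fold. The error of a difference at 1 probe set, estimated from the disagreement between probe sets of the same gene, was 0.33 on the log2 scale at day 6 over 5637 genes and 0.32 at day 3 over 5659 genes. It covers probe error only. Signals of different probe sets are on different scales and are not compared with each other.

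The line's own markers were present, with all 7 osteoblast markers that had a probe set above the floor on both osteogenic arrays and 6 on each normal medium array. Of the markers of other cell types, all 7 mast cell and all 6 adipocyte markers were never above the floor. Nor were 6 of 8 endothelial markers and 5 of 11 leukocyte and macrophage markers, among them Ptprc and Adgre1. The leukocyte and macrophage markers Csf1r, Cd14, Fcer1g, Laptm5, Lyz1 and Lyz2 were above it on all 4 arrays. The summed leukocyte and macrophage signal was 1252 in osteogenic against 1864 in normal medium at day 6, and 1383 against 1605 at day 3. At day 6 its members moved both ways. Fcer1g was 232 against 98.7, a ratio of 2.35 and past 2-fold higher, while Lyz1 (151 against 675) and Lyz2 (223 against 526) were past 2-fold lower, and 0 passed at day 3. The summed smooth muscle signal was 48152 against 50357 at day 6 and 65673 against 60898 at day 3, most of it Acta2, with 31433 against 38864 and 44842 against 48819. The other Acta2 probe sets measured at day 6 were past 2-fold lower, and the other one measured at day 3 did not pass 2-fold. Tagln, the next largest member, was 16220 in osteogenic against 10696 in normal medium at day 6. At day 3 Tagln was 19743 against 10881, and it did not pass 2-fold at either day. Past 2-fold, Des was higher (164 against a signal under the floor) and Lmod1 lower (206 against 588) at day 6. At day 3 Cnn1 was past 2-fold higher (413 against 104). The part of these cell type markers in the results was not tested. The osteogenic day 6 array stood apart in a control probe set for the 5′ end of 18S ribosomal RNA, at 746 against 5202 in normal medium at day 6, 8250 in osteogenic medium at day 3 and 9162 in normal medium at day 3. Its 3′ to 5′ ratio for Gapdh was 0.763, and 0.756 to 0.769 on the other arrays. The part of this control in any day 6 result was not tested.

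Promoter sequences are shown for the cyclooxygenase and the receptor that were higher, Ptgs2 and Ptger4, and for Ptges, which lay under 2-fold. They are RefSeq sequences of build GRCm38.p6, 300 bases long, with 250 bases before the annotated start of the gene, printed along the gene's strand. The Ptgs2 window is chr1:150099781-150100080 on the plus strand, the Ptger4 window chr15:5244138-5244437 on the minus strand and the Ptges window chr2:30903248-30903547 on the minus strand. Capitals mark matches to 8 searched motifs.
Ptgs2: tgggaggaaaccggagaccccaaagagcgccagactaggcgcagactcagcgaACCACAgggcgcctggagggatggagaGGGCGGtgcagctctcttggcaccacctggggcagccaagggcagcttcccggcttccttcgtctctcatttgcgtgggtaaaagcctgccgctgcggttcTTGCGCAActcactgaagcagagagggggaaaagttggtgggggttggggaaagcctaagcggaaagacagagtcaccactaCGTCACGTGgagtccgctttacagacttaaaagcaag
Ptger4: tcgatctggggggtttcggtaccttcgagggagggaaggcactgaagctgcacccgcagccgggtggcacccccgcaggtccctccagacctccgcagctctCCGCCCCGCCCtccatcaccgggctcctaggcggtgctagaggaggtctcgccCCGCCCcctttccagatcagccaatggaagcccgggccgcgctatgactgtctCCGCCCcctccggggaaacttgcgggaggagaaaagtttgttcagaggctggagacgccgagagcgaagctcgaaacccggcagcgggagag
Ptges: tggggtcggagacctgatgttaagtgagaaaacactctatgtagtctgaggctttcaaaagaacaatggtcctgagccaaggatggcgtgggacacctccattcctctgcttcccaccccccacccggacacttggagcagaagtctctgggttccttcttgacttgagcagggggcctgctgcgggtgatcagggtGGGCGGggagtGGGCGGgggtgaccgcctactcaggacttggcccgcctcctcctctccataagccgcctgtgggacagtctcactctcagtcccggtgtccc

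The motifs were searched on both strands. They were TGACG, the short form of the cAMP response element, its full form TGACGTCA, the E-box CACGTG, the C/EBP palindrome TTGCGCAA, the RUNX site TGTGGT, the AP-1 site TGANTCA, the GC box GGGCGG and the TATA box TATAAA. The Ptgs2 window held 5 of the 8, the RUNX site on the opposite strand, the GC box, the C/EBP palindrome, and the short cAMP response element on the opposite strand, which overlaps an E-box. The palindrome began 69 bases before the annotated start, and the short element and the E-box began at bases 14 and 17 after it. Of 32851 windows of the same length, 0.183% held the C/EBP palindrome, 20.8% the short element, 7.15% the E-box, 16.8% the RUNX site and 35.7% the GC box. The Ptger4 window held 4 GC boxes, of which a pair overlap, and the Ptges window held 2, with no other searched motif in either. The full cAMP response element (in 1.79% of windows), the AP-1 site (7.81%) and the TATA box (13.6%) were in none of the 3 windows printed. Of the other members with a window, Ptges2 had an E-box, Ptges3 a short element and GC boxes, Hpgd a GC box and a TATA box, and Ptger2 and Ptgs1 none of the 8. A match is a run of letters only, and nothing in these arrays measures binding.

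Ptgs2 encodes COX-2, the cyclooxygenase that many stimuli induce. At day 6 its brighter probe set read 2052 in osteogenic medium and 326 in normal medium, and at day 3 of 433 against 249. The osteogenic day 6 array was the highest by far, followed by osteogenic day 3, normal day 6 and normal day 3. The log2 medium difference was 2.65 at day 6 and 0.80 at day 3, placing Ptgs2 34th from the top among 11901 measured genes at day 6 and 457th among 11861 at day 3.

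The dimmer Ptgs2 probe set kept that order with smaller differences. Its signal was 365 in osteogenic against 120 in normal medium at day 6, and 128 against 101 at day 3. The log2 difference was 1.61 at day 6 and 0.34 at day 3, the day 3 value being about the size of the probe error. Both probe sets passed 2-fold at day 6, where 3.57% of all measured probe sets were higher, and neither did at day 3, where 1.81% were.

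In osteogenic medium the brighter Ptgs2 probe set was 4.74-fold higher at day 6 than at day 3, and in normal medium 1.31-fold higher. Its change of the medium difference from day 3 to day 6 was 1.85 on the log2 scale, 77th from the top among 11259 genes, and was 1.27 for the dimmer probe set. With 1 array per group this change could not be tested. It was past 2-fold and positive for 4.54% of genes.

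Ptgis encodes prostacyclin synthase, which makes prostaglandin I2. Its only probe set read 573 in osteogenic medium and 277 in normal medium at day 6, and 443 against 163 at day 3. Both osteogenic arrays were above both normal medium arrays, an order whose share among all genes was not counted. The log2 medium difference was 1.05 at day 6 and 1.44 at day 3, and at day 3 Ptgis stood 58th from the top of 11861 genes. The day 6 value lies just past 2-fold. It was just under it with arrays shifted to a common median, and 0.91 with a pseudocount in place of the floor. In normal medium alone Ptgis was 1.70-fold higher at day 6 than at day 3, and in osteogenic medium 1.29-fold higher.

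Ptges encodes the inducible, microsomal prostaglandin E synthase that usually works with COX-2. Its brightest probe set read 710 in osteogenic medium and 896 in normal medium at day 6, and 668 against 749 at day 3. The next had 522 against 514 at day 6 and 414 against 564 at day 3, and the dimmest 202 against 254 at day 6 and 197 against 303 at day 3. 5 of these 6 differences were below zero. They ran from -0.62 to 0.02 on the log2 scale, and none reached 2-fold.

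Ptges2 encodes a second membrane-bound prostaglandin E synthase. It read 583 in osteogenic medium and 365 in normal medium at day 6, and 648 against 482 at day 3. Its log2 medium differences were 0.67 at day 6 and 0.43 at day 3. In normal medium its log2 difference between day 6 and day 3 was -0.40, and in osteogenic medium -0.15.

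Ptges3 encodes a cytosolic prostaglandin E synthase that is also the p23 cochaperone of Hsp90. The brighter of the probe sets that it shares with its pseudogene read 11874 in osteogenic medium and 12526 in normal medium at day 6, and 14688 against 14111 at day 3. The other had 9192 against 9097 at day 6 and 10876 against 10021 at day 3. The log2 medium differences of the 2 shared probe sets lay between -0.08 and 0.12, inside the probe error.

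**Figure D1:**
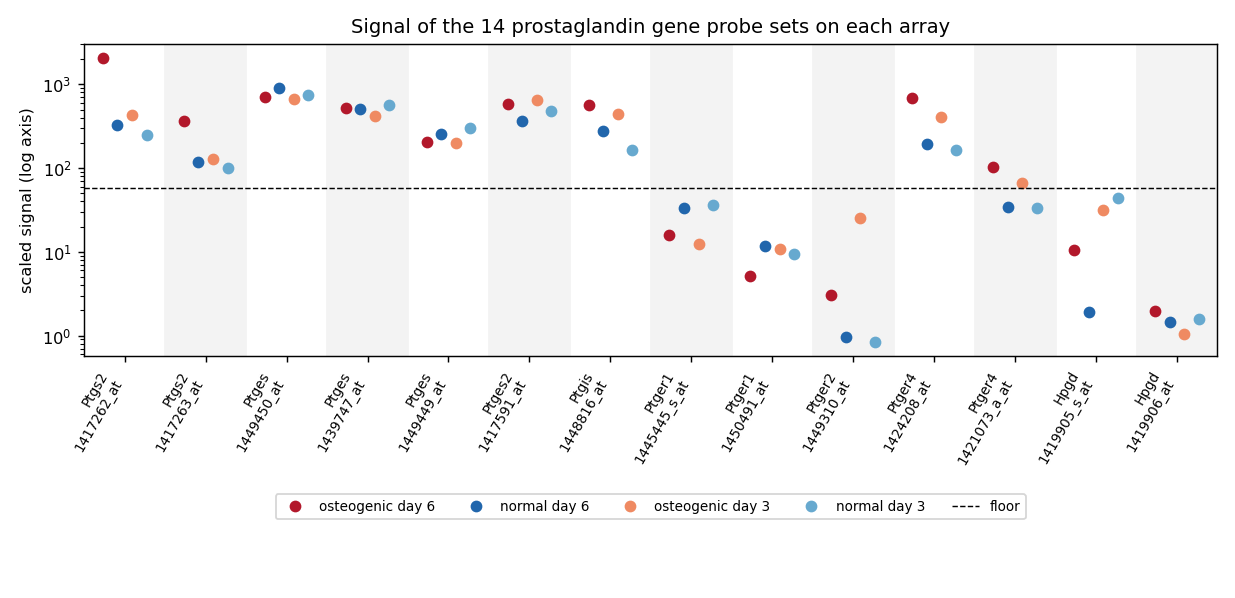
Scaled signal on a log axis for each of the 14 probe sets of 8 prostaglandin genes, with 1 point per array and the floor of 57.8 as a dashed line. Both Ptgs2 probe sets have their highest point on the osteogenic day 6 array. Every probe set of Ptgs2, Ptges2, Ptgis and Ptger4 has both osteogenic points above both normal medium points. The share of all genes with such an order was not counted. Every point of Ptger1, Ptger2 and Hpgd lies under the floor.

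Ptger4 encodes EP4, a receptor through which prostaglandin E2 raises cAMP in osteoblasts. Its brighter probe set read 695 in osteogenic medium and 195 in normal medium at day 6, and 405 against 164 at day 3. Both osteogenic arrays were above both normal medium arrays, but the share of all genes with such an order was not counted. The log2 difference was 1.84 at day 6, 112th from the top of 11901 genes, and 1.30 at day 3, 92nd of 11861.

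The dimmer Ptger4 probe set was above the floor on the osteogenic arrays only. It had a signal of 104 in osteogenic medium at day 6 and 66.6 at day 3, so it was at least 1.79-fold and at least 1.15-fold higher than in normal medium. With the log2 values of both probe sets averaged, the Ptger4 difference at day 3 was 0.75, under 2-fold. In osteogenic medium the brighter probe set was 1.72-fold higher at day 6 than at day 3, and in normal medium 1.19-fold higher.

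Ptger2 and Ptger1 encode EP2 and EP1. The Ptger2 signal was 3.01 in osteogenic against 0.957 in normal medium at day 6, and 25.6 against 0.833 at day 3. The signals of the 2 Ptger1 probe sets ran from 5.17 to 15.9 in osteogenic against 11.7 to 33.1 in normal medium at day 6, and from 10.8 to 12.4 against 9.33 to 36.6 at day 3. All of these lie under the floor, so they give no order and no fold.

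Hpgd encodes 15-hydroxyprostaglandin dehydrogenase, which begins the breakdown of prostaglandin E2. Its brighter probe set read 10.4 in osteogenic medium and 1.91 in normal medium at day 6, and 31.2 against 44.5 at day 3. The other had 1.98 against 1.45 at day 6 and 1.04 against 1.57 at day 3. Neither was above the floor on any array.

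Of the 10 genes, 5 were measured, and these 5 were above the floor on all 4 arrays. The 10 were chosen with earlier results of these data known, so the shares beside their counts describe and test nothing. Ptger3, a further prostaglandin E2 receptor gene outside the 10, was past 2-fold lower at day 6. At day 6, 3 of the 5 were higher in osteogenic medium and 0 lower, against 4.18% of all measured genes higher and 2.78% lower. At day 3, 2 of the 5 were higher and 0 lower, against 1.99% and 1.59%. The median log2 difference of the 5 was 1.05 at day 6 and 0.80 at day 3, against 0.01 at each day for all measured genes. Ptgis and Ptger4 passed 2-fold at both days, as did 0.826% of the 11259 genes measured at both. Ptgs2, Ptges2, Ptgis and Ptger4 were above zero at both days, as were 32.1% of those genes.

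Between days, 1 of the 5 genes, Ptgs2, was higher at day 6 than at day 3 in osteogenic medium and 0 were lower, against 3.7% and 2.62% of all measured genes. In normal medium 0 of the 5 were higher and 0 lower at day 6, against 0.741% of all measured genes higher and 0.741% lower. The day 6 comparison of media and the comparison of days in osteogenic medium share the osteogenic day 6 array.

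The medium could be tested only over both days, with 2 osteogenic arrays against 2 normal medium arrays and day as a covariate. That fit has 1 residual degree of freedom, which also takes up whatever differed in the medium effect at day 6 and day 3. With limma and empirical Bayes, 0 of 26200 probe sets (0%) passed a false discovery rate of 5%, and 3378 (12.9%) had an unadjusted p under 0.05. The bright Ptger4 probe set had a log2 medium difference of 1.57 ± 0.22 (SE, adjusted p = 0.189 by limma). Ptgis had 1.24 ± 0.20 (adjusted p = 0.212 by limma) and the bright Ptgs2 probe set 1.72 ± 0.44 (adjusted p = 0.263 by limma). Of the 9 measured probe sets of the 5 genes, 0 passed the false discovery rate and 5 had an unadjusted p under 0.05. The adjusted p over all 12 settings of this fit ran from 0.0687 to 0.749 for Ptger4, from 0.107 to 0.749 for Ptgis and from 0.109 to 0.79 for Ptgs2.

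**Figure D2:**
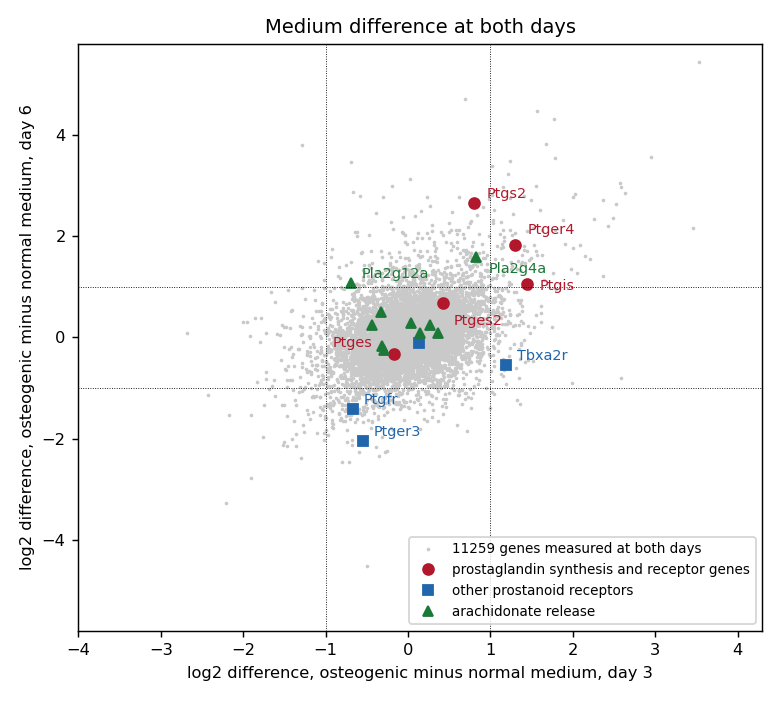
Log2 difference between osteogenic and normal medium at day 6 (vertical) against day 3 (horizontal) for 11259 genes in grey, the 5 measured prostaglandin genes as red circles, other prostanoid receptor genes as blue squares and arachidonate release genes as green triangles, with dotted lines at 2-fold. Ptgs2 at 2.65 is the highest of the red points at day 6, Ptgis and Ptger4 lie past 2-fold at both days, and Ptger3 and Ptgfr lie below -1 at day 6.

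Among the prostanoid receptor genes outside the 10, Ptger3 and Ptgfr were past 2-fold lower in osteogenic medium at day 6. They were 2 of 4 measured of 7 listed, with 0 higher, against 2.78% of all measured genes lower. At day 3, 1 was higher and 0 lower, against 1.99% and 1.59%. The median log2 difference was -0.98 at day 6 and -0.21 at day 3, and includes values of Tbxa2r and Ptgdr that are bounds set by the floor. Ptger3 encodes EP3, the receptor that mostly lowers cAMP. It read 78.6 in osteogenic medium and 326 in normal medium at day 6, 4.14-fold lower, and 157 against 229 at day 3. The gene's other probe set was under the floor on every array. The osteogenic day 6 signal lies close to the floor, and the log2 difference of -2.05 became -1.44 with the floor at percentile 60 and -1.02 with averaged probe sets.

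Ptgfr encodes FP, the receptor for prostaglandin F2α, and had 5 probe sets. The brightest read 998 in osteogenic medium and 2666 in normal medium at day 6, 2.67-fold lower, and 1494 against 2371 at day 3. At day 6, 4 of the 5 probe sets passed 2-fold on the lower side, while the other, a probe set whose probes can cross-hybridise by its name's suffix, had a log2 difference of 0.30. At day 3 all 5 were below zero and 2 passed 2-fold. Tbxa2r, the thromboxane receptor gene, had a signal of 132 in osteogenic medium at day 3 and 84.6 in normal medium at day 6, and was under the floor on the other 2 arrays. Its day 3 difference of at least 1.19 was 0.14 with the floor at percentile 60. Ptgdr, the gene of a prostaglandin D2 receptor, had 44.2 against 62.1 at day 6 and 63.2 against 45.0 at day 3. The 44.2 and the 45.0 lie under the floor, so its log2 differences of -0.10 and 0.13 are bounds. With the floor at percentile 40 they were -0.49 and 0.49.

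**Figure D3:**
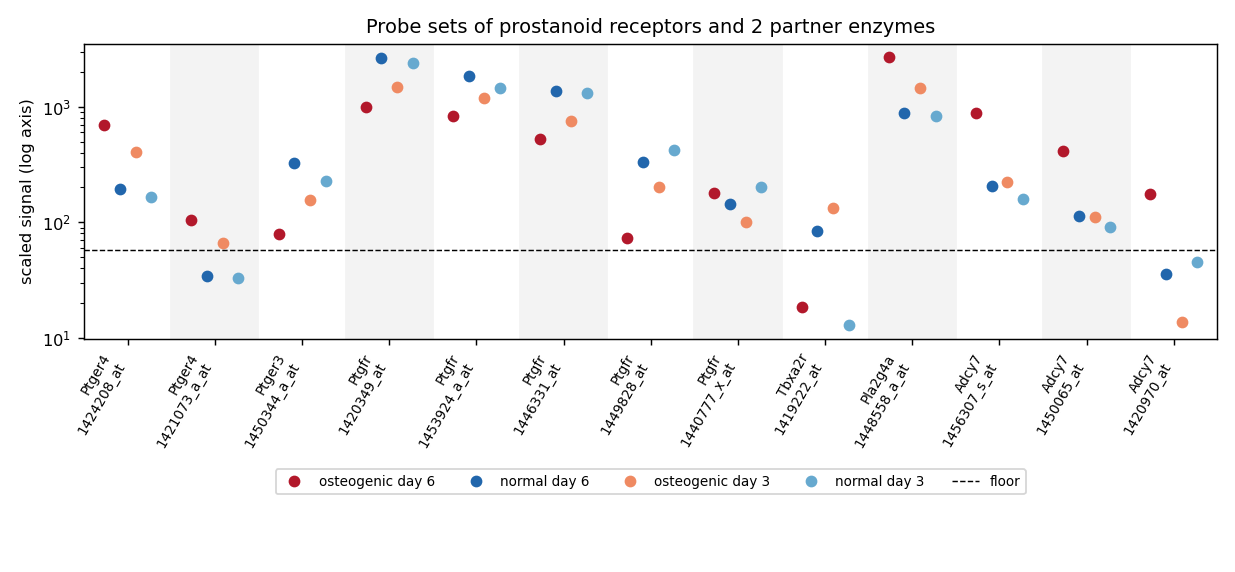
Scaled signal on a log axis for every probe set above the floor on at least 1 array of Ptger4, Ptger3, Ptgfr, Tbxa2r, Pla2g4a and Adcy7, with 1 point per array and the floor of 57.8 as a dashed line. These genes were chosen for the plot after their values were seen. In 4 of 5 Ptgfr probe sets the osteogenic day 6 point is the lowest, while it is the highest for both Ptger4, all 3 Adcy7 and the Pla2g4a probe sets.

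Upstream of the cyclooxygenases, 12 of 22 listed genes of arachidonate release were measured at day 6, of which 2 were higher and 0 lower. Their median log2 difference was 0.25 at day 6 and 0.03 at day 3, where 0 of 11 passed 2-fold. For this list and those below, the shares of all measured genes were 4.18% higher and 2.78% lower at day 6. At day 3 these shares were 1.99% and 1.59%. Pla2g4a encodes cytosolic phospholipase A2, which frees arachidonic acid for the cyclooxygenases. It read 2675 in osteogenic medium and 888 in normal medium at day 6, 3.01-fold higher, and 1456 against 825 at day 3, 1.76-fold higher. Pla2g12a, which encodes a secreted phospholipase A2, had 547 against 260 at day 6 but 252 against 408 at day 3, and its day 6 difference was under 2-fold with a pseudocount (0.93). Dagla and Mgll, which act on diacylglycerol and monoacylglycerol, did not pass 2-fold. Dagla had log2 differences of 0.51 at day 6 and -0.32 at day 3. The brightest Mgll probe set had at least 0.66 at day 6, and its other measured probe sets at least 0.05 and 0.06.

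Among the other prostanoid synthases and related reductases, 0 of 7 passed 2-fold at day 6 and 0 of 6 at day 3, with medians of -0.10 and -0.14. The carbonyl reductase genes Cbr3 and Cbr1 had log2 differences of 0.98 and 0.70 at day 6 and 0.67 and 0.35 at day 3. Ptgds, a prostaglandin D synthase gene, was near the floor, with 69.7 against 40.1 at day 6 and the other way round, 43.0 against 77.2, at day 3. Tbxas1, the thromboxane synthase gene, had 53.2, under the floor, against 70.1 at day 6 and was under the floor on both day 3 arrays.

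In prostaglandin transport and breakdown, 0 of 6 genes passed 2-fold at day 6 and 0 of 5 at day 3. Abcc4, an exporter of prostaglandins, read 674 in osteogenic medium and 662 in normal medium at day 6, and 384 against 703 at day 3. Ptgr1, a prostaglandin reductase gene, had 3451 against 4531 at day 6 and 4885 against 4964 at day 3. Slco2a1, the prostaglandin uptake transporter gene, had no signal above 70.6 on any array at any of its 4 probe sets. Slco3a1, another organic anion transporter gene, had 84.1 against 46.7 at day 6 and 40.4 against 91.7 at day 3. Of these, 46.7 and 40.4 lie under the floor, and with averaged probe sets its log2 differences were 0.18 and -0.29.

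The lipoxygenase branch uses the same arachidonic acid. Of its 5 measured genes 1 was higher and 0 lower at day 6, against 4.18% and 2.78% of all measured genes. At day 3, 0 passed 2-fold. Alox5ap, whose product presents arachidonic acid to 5-lipoxygenase, had log2 differences of 0.57 and 0.95 at day 6 and day 3. Aloxe3, an epidermal lipoxygenase gene, had at least 1.21 at day 6, with 134 in osteogenic medium, and -0.42 at day 3. That call, the only one of the list, was lost with the floor at percentile 60 (0.16) and with a pseudocount (0.79). Alox12 was above the floor on 1 array only, osteogenic day 6 (82.2), and Ltc4s, the leukotriene C4 synthase gene, on normal day 3 only (82.6).

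Among 20 measured components of EP receptor signalling, 2 were higher and 1 lower at day 6, against 4.18% and 2.78% of all measured genes. At day 3, 0 were higher and 1 lower, against 1.99% and 1.59%. The list's medians were -0.20 and -0.15 at day 6 and day 3. Adcy7, an adenylyl cyclase gene, read 877 in osteogenic medium and 206 in normal medium at day 6, 4.26-fold higher, and all 3 of its probe sets passed 2-fold. At day 3 it had 223 against 158. Rapgef3, a cAMP-activated exchange factor gene, had a log2 difference of 1.30 at day 6 and 0.70 at day 3, and at day 6 was under 2-fold with the floor at percentile 60 (0.87), a pseudocount (0.92) or averaged probe sets (0.84). Akap12, an anchoring protein gene of protein kinase A, was the lower one at day 6 (-1.36), and Prkar1b, a regulatory subunit gene, at day 3, with 40.4 in osteogenic against 159.9 in normal medium. The only other Prkar1b probe set measured at day 3 had a log2 difference of 0.63. The call was lost with averaged probe sets (-0.17) and with the floor at percentile 60 (-0.42).

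Of the cAMP and CREB target genes 2 of 18 were higher at day 6 and 3 of 19 at day 3. Of all measured genes 4.18% and 1.99% were higher. In the list 0 were lower at either day, and its median log2 differences were 0.36 and 0.16. Nr4a2, an orphan nuclear receptor gene, had 1.57 at day 6 and 0.35 at day 3, and Id1, which is also a BMP target gene, had 1.55 and 1.14. The other Nr4a2 probe sets ran from 0.08 to 1.41 at day 6 and from -0.39 to 1.94 at day 3, and with probe sets averaged its day 6 difference was 0.75, under 2-fold. Fos and Fosb, components of AP-1, had 0.68 and 0.52 at day 6 and 1.36 and 1.08 at day 3. The day 3 calls of Fosb (0.65) and Id1 (0.93) were lost with a pseudocount, and that of Fosb also with the floor at percentile 60 (0.09). Fos differed more between days, with 5662 in osteogenic and 3545 in normal medium at day 6 against 700 and 274 at day 3.

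Of the inducers and transcription factors of Ptgs2, 4 of 16 were higher at day 6 and 1 of 16 at day 3. Of all measured genes 4.18% and 1.99% were higher. The list's medians were 0.25 and 0.10. Cebpb, a C/EBP transcription factor gene, read 13038 in osteogenic medium and 5354 in normal medium at day 6 and 6956 against 6252 at day 3. Pth1r, the parathyroid hormone receptor gene, had log2 differences of 2.12 and 1.24 at day 6 and day 3, and Tgfb1 had 1.71 and 0.15. Il6 had a signal of 133 in osteogenic medium at day 6 and was under the floor on the other arrays, a log2 difference of at least 1.21. With the floor at percentile 60 Il6 had 0.16, and with averaged probe sets Tgfb1, whose other probe set was never above the floor, had 0.86. Of 9 glucocorticoid response genes, which include repressors of Ptgs2, 1 was higher at day 6, Sgk1 (1.43), and 0 passed 2-fold at day 3. The glucocorticoid target Tsc22d3 had -0.75 and -0.62, Zfp36, whose product destabilises inflammatory messenger RNAs, -0.75 and 0.13, and Fkbp5 0.19 and -0.73.

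**Figure D4:**
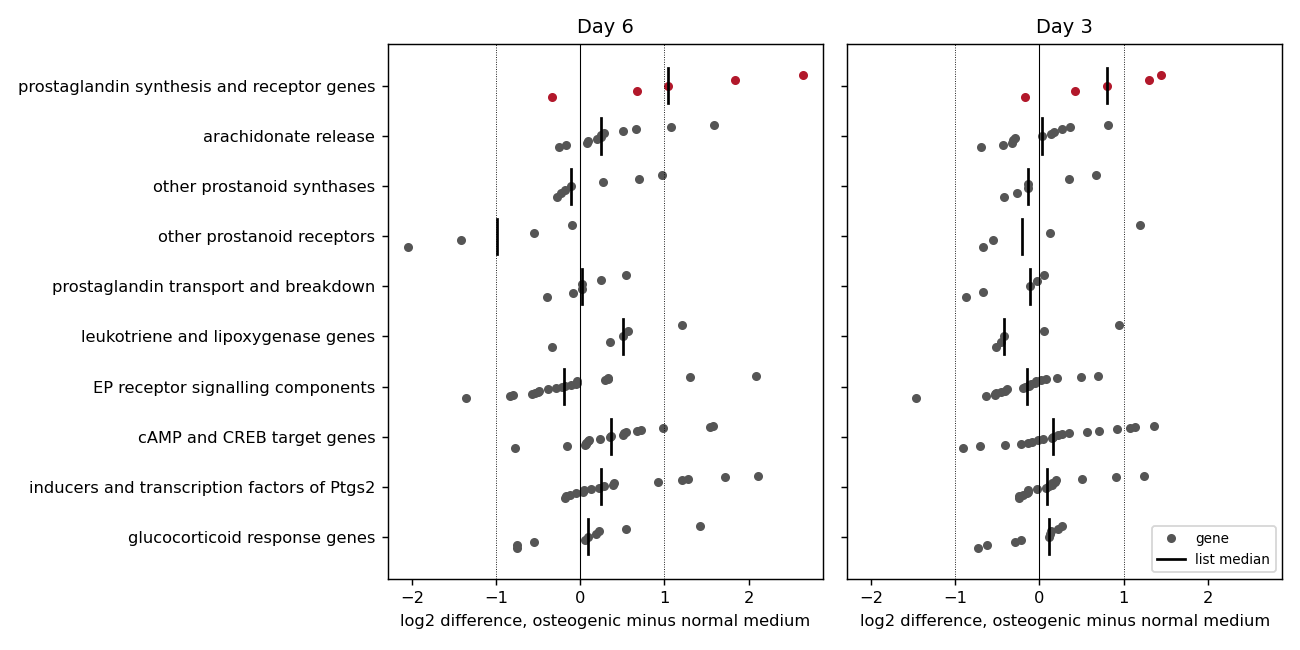
Log2 difference between osteogenic and normal medium at day 6 (left) and day 3 (right) for each measured gene of 10 lists, with 1 point per gene, the list median as a black bar and dotted lines at 2-fold. The prostaglandin synthesis and receptor genes have a median of 1.05 at day 6 and 0.80 at day 3, and all 4 other prostanoid receptor genes lie below zero at day 6.

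The profile over the 4 arrays was compared with that of every other gene above the floor on at least 3 arrays. Likeness was the root mean square distance between centred log2 profiles, with signals under the floor set to it. The 3 genes nearest to Ptgs2 were Megf10 (0.10), Cystm1 (0.12) and Gpnmb (0.16), with the distance in log2 units in brackets. Megf10 read 819 in osteogenic medium and 143 in normal medium at day 6 and 190 against 91.9 at day 3. A second Cystm1 probe set had a day 6 difference of -0.28, against 2.82 for the bright one, and their average was 1.27. Nearest to Ptger4 were Ch25h (0.06), Adgre5 (0.06) and C1qtnf7 (0.08), and nearest to Ptgis were Scrt2 (0.09), Steap4 (0.12) and Dand5 (0.14). In normal medium at day 3 the signals of Cystm1, Scrt2 and Dand5 were under the floor, at 17.1, 53.3 and 48.7. Ch25h read 557 in osteogenic medium and 148 in normal medium at day 6 and 295 against 132 at day 3. With 4 arrays and 10810 genes to choose from, close profiles are a description of these arrays only.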

How the data were processed

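RNA of 4 groups, 1 array each, was measured on Affymetrix Mouse Genome 430 2.0 arrays. Per the labels' protocols, 500 ng of total RNA with DNase treatment was turned into biotin-labelled cRNA with a 3′ in vitro transcription kit. The authors deposited 1 linear intensity per probe set, with arrays already scaled to a mean of 500.0 after the extreme 2% of probe sets at each end. The software is not given in the sources used here.

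Symbols were those that GEO's platform table gives. Of 45101 probe sets 64 are controls, and of the rest 34945 have 1 symbol, 932 several and 9160 none in the table used here. Of those with 1 symbol, 34741 matched RefSeq GRCm38.p6 by Entrez ID. Probe sets with several symbols entered no count of genes. Arrays were brought to the same 75th percentile, by factors of 0.988 to 1.02, values under the pooled 50th percentile were set to it, and log2 was taken. A probe set counts as measured if above that floor on at least 1 of the 2 arrays compared. Medium over both days was fitted with limma 3.58.1 in R 4.3.3 on all measured probe sets, two-sided, with Benjamini-Hochberg adjustment. The steps were tested on simulated data.

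The genes and the 15 other lists were chosen with earlier results of these data known. Besides all 10 genes, the rule for named genes took up to 4 genes a list with the largest medium differences, marker lists being given as counts, and for each of the 10 spanning at least 1 log2 unit the 3 genes of nearest profile. Alternatives were 3 other scalings, a floor at percentile 40 or 60, a pseudocount, neither floor nor filter, a stricter filter, averaged probe sets and 2 other variance estimates. With 4 arrays in all, their number sets the precision.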

Additional observations from a re-analysis of the deposited data

Results flagged for a closer look

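The medium difference changed sign between days, with 1 of the 2 values past 2-fold, for 3 named genes outside the 10. Each day has 1 array per medium, so the difference between days was not tested. Pla2g12a had a log2 difference of 1.08 at day 6 and -0.70 at day 3. Tbxa2r had -0.55 at day 6 and 1.19 at day 3, each against a floor. Aloxe3 had 1.21 at day 6, against the floor, and -0.42 at day 3.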

How the results depend on the processing

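Without floor or filter 8 of the 10 genes enter, and 6 passed 2-fold between media at day 6, 4 at day 3, 3 between days in osteogenic and 1 in normal medium, against 3, 2, 1 and 0 in the values above. The additional calls come from genes under the floor. With averaged probe sets 1 gene passed at day 3, as Ptger4 was then under 2-fold. In the other settings the count at day 6 was 2 or 3, and 2, 1 and 0 in the other comparisons. 0 of the probe sets of these genes passed the false discovery rate for medium in any of the 12 settings, where the number called among all probe sets was 147 by limma with a variance trend, 4 with the stricter filter and 0 in the rest. Of 901 alternative values for 55 named genes, 821 moved by less than the probe error, 80 by more, and 0 that passed 2-fold changed sign. Many of these values could not move. Another floor or the stricter filter leaves bright genes as they were, and averaging leaves genes with 1 probe set as they were. Settings in which a gene was no longer measured are not among the 901. Day 6 differences ran from 2.13 to 2.66 for Ptgs2, 1.34 to 1.84 for Ptger4 and 0.91 to 1.05 for Ptgis.

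Counts of all genes past 2-fold moved by over 1.5 times in some settings. At day 3 the count of 424 became 752 at a floor set to percentile 40, 227 at percentile 60 and 257 with averaged probe sets. In normal medium between days the count of 174 became 436, 59 and 97. Without floor or filter the counts were 4782 at day 6, 4478 at day 3, 4723 between days in osteogenic and 4096 in normal medium, against 828, 424, 755 and 174. The fit of medium compares the media within each day, with day as its block. The labels give no replicate numbers, so no other pairing could be tried. Leaving out the osteogenic day 6 array would leave no residual for the fit of medium. The floor is pooled over all arrays, so it could change, and with it the day 3 values that are bounds. This was not run.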
